A study of Mus musculus with 17 samples.

Results

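Malat1 and Neat1 are long noncoding RNAs that stay in the nucleus, and they are described here as they were found in the cell-free RNA (cfRNA) of mouse plasma. Both were chosen by name, as RNAs that mark material from nucleated cells, and they are 2 of the 49585 genes in the deposited gene tables. The plasma came from wild type C57BL/6J mice aged 13 weeks. The AG group (6 libraries) was kept in flight under Artificial-1G, the MG group (6 libraries) was kept in flight in Microgravity, and the GC group (5 libraries) was the Ground control. All groups thus share strain, genotype and age, and AG and MG also share the flight. Each library was made from 2.5 μl of RNA with a small RNA kit, so that long transcripts are seen only through their short fragments, and reads were counted per gene.

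Malat1 is among the most abundant RNAs of most nucleated cells and gathers in nuclear speckles, bodies rich in splicing factors. Neat1 is the scaffold of paraspeckles, bodies that form only where its long isoform is made, and its short isoform shares the 5′ end of the long one. Neither long transcript ends in an ordinary poly(A) tail: RNase P cuts the RNA just upstream of a tRNA-like stretch, which is released, and a U-rich motif folds with a genomically encoded A-rich tract into a triple helix that protects the new 3′ end. Red cells and platelets carry no nucleus, so neither RNA would be made in them in the circulation.

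In GRCm38, the assembly also called mm10, both genes lie on the minus strand of chromosome 19 and are annotated as lincRNA. Malat1 (ENSMUSG00000092341.3) spans 5795690 to 5802672 and Neat1 (ENSMUSG00000092274.3) spans 5824708 to 5845478, so the main transcript of each, Malat1-201 with 6983 bases and Neat1-201 with 20771 bases, is 1 exon without introns. The sequences that form the 3′ ends follow, because they set these RNAs apart from polyadenylated ones. They are reference transcript sequences of GENCODE M21, written 5′ to 3′ with T for U. Capitals mark runs of at least 9 letters that 2 of the sequences share exactly and that do not overlap. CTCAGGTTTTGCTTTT, which holds the U-rich motif, and AAAAAGCAAAA, in the A-rich tract, stand in both long RNAs. AGTCCCTGC stands in the tRNA-like stretch of Malat1-201 and in Gm27702, a small RNA gene annotated at chr19:5824652-5824707, where Neat1-201 ends. The Malat1-201 stretch is chr19:5795921-5796043 and the end of Neat1-201 is chr19:5824708-5824767.
Malat1-201: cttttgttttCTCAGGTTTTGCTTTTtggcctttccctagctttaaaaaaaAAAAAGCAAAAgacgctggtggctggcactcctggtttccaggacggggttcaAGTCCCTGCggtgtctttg
Neat1-201: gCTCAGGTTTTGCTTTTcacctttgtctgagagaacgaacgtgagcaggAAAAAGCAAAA
Gm27702: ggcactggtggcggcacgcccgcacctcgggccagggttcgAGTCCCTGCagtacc

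The A-rich run closed the annotated Neat1-201, while in Malat1-201 the annotation ran 292 bases past it and so included the tRNA-like stretch. The 60 bases after the run in Malat1-201 and Gm27702 could be aligned over 40 identical and 16 mismatched bases, an identity of 71.4%. Of 141767 annotated mouse transcripts, 2 held the U-rich run on the RNA strand, and these are the pair. Over whole transcripts 0.436% held the A-rich run and 1.37% the tRNA-like run on that strand. In the last 120 bases of the 137364 transcripts of at least that length, the window that holds the A-rich run of Neat1-201 but neither run of Malat1-201, it was 0.0510% and 0.0874% on the RNA strand and 0.0866% and 0.149% on either strand. The runs were taken from these RNAs, and a match is a description of the letters and not of a fold.

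**Figure D1:**
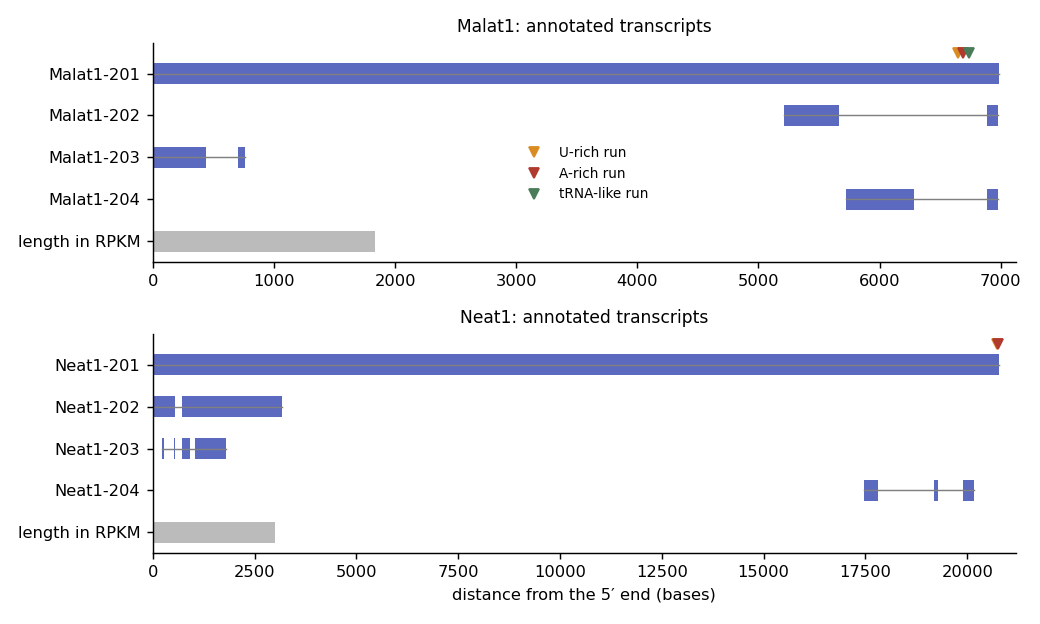
Annotated transcripts of Malat1 and Neat1 along the distance from the 5′ end in bases, with exons as bars, introns as lines and the shared runs as triangles, those of Neat1 coinciding at this scale. The grey bars give only the length that the deposited RPKM values imply (1834 bases for Malat1 and 3004 bases for Neat1), drawn from 0 and not a position, and both are far shorter than the 1-exon transcripts.

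Both genes were found in plasma at a few reads per library. Over the 17 libraries, with 2749638 counted reads, Malat1 had 71 reads and Neat1 had 33, which together is 37.8 reads per 1000000 counted (RPM). Malat1 was found in 14 libraries and Neat1 in 14, and 11 libraries held both, while each of the 17 held at least 1 read of either. Low as these counts are, 96.4% of the 12605 genes with any count had fewer reads than Malat1 and 91.6% had fewer than Neat1. Library totals ran from 115515 to 277682 counts in AG, 113746 to 223189 in MG and 84657 to 195103 in GC, so the counting error of so few reads is large. A library without a read of a gene still allows a share of up to 3 counts of its total.

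Malat1 was sparse in AG and present in every MG and GC library. AG replicates 1 to 6 had 0, 0, 2, 4, 2 and 0 Malat1 reads, MG replicates 1 to 6 had 4, 1, 4, 11, 9 and 7, and GC replicates 1 to 5 had 2, 4, 8, 5 and 8. The 3 AG libraries without a read thus lie below every other library, whereas AG replicate 4 equals or exceeds 3 MG and 2 GC libraries in reads. As a share of counts, the 0 reads in AG replicate 2 allow up to 12.002 RPM, and those in AG replicates 1 and 6 allow up to 19.97 and 18.03, by the limit of 3 counts. The two-sided exact 95% binomial interval of these libraries ends higher, at 14.8, 24.6 and 22.2 RPM. The highest share was in MG replicate 4, at 94.1 RPM with an exact 95% binomial (Clopper-Pearson) interval of 47.0 to 168. Such intervals and limits cover counting error only. The order depends on the total taken, since the counted reads were 1.19% of the mapped reads in MG replicate 4, the lowest of all libraries, and up to 5.78% in others (mapped totals recovered from RPKM). Per 1000000 mapped reads Malat1 was 1.12 in MG replicate 4 and highest in GC replicate 5, at 2.50.

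Neat1 was thinner and spread more evenly over the groups. AG replicates 1 to 6 had 1, 1, 0, 1, 1 and 2 Neat1 reads, MG replicates 1 to 6 had 1, 4, 2, 7, 0 and 3, and GC replicates 1 to 5 had 0, 2, 4, 2 and 2. Each group therefore held 1 library with none, and the groups overlapped. The highest share was again in MG replicate 4, at 59.9 RPM (exact 95% interval 24.1 to 123), whereas per 1000000 mapped reads it was 0.715 there and highest in MG replicate 2, at 1.36. The 0 reads in AG replicate 3, MG replicate 5 and GC replicate 1 allow up to 10.8, 19.9 and 35.4 RPM. In MG replicate 5, Malat1 had 9 reads where Neat1 had none, whereas MG replicate 2 had 1 Malat1 and 4 Neat1 reads.

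**Figure D2:**
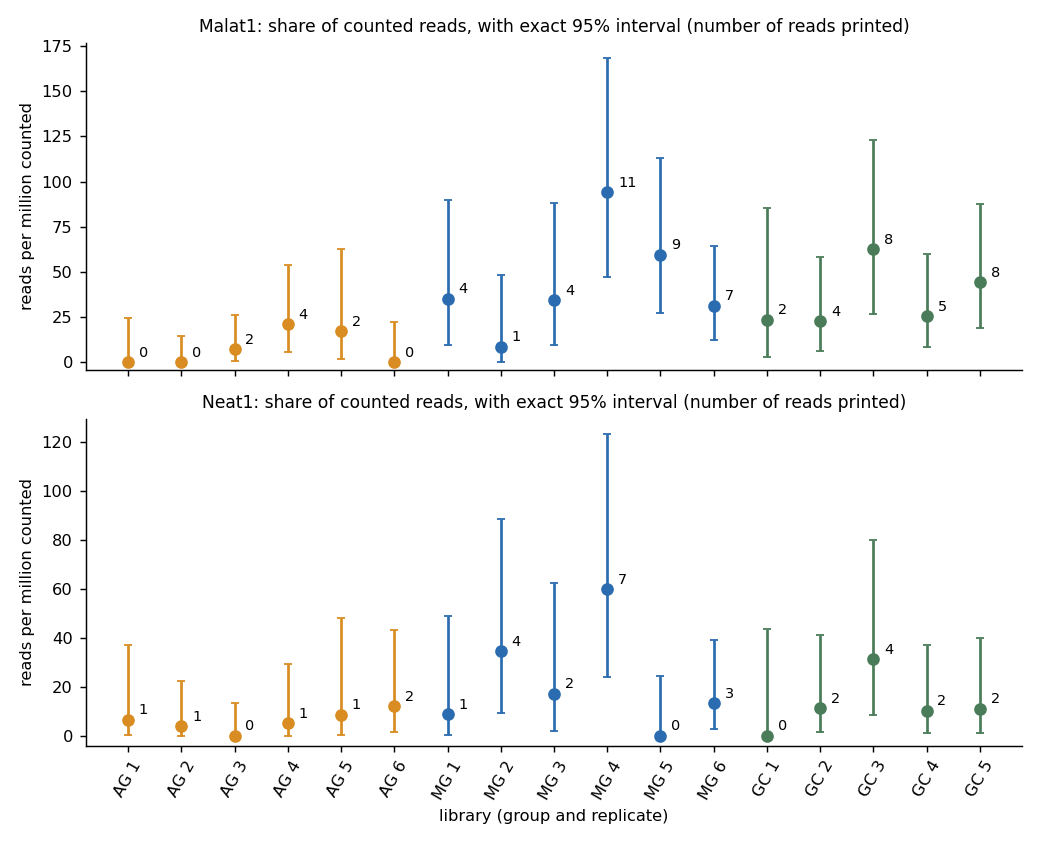
Share of counted reads (RPM, reads per 1000000 counted) of Malat1 above and Neat1 below in each library, with exact 95% binomial intervals as bars and the number of reads printed beside each point. Malat1 reaches 94.1 and Neat1 59.9 RPM in MG replicate 4, and the 3 Malat1 libraries at 0 are all AG.

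Malat1 was the more abundant of the pair in most libraries. It had more reads in 13 libraries and fewer in 4, and the ratio of summed reads was 2.15. Per length the ratio depends on the length taken. The deposited RPKM (reads per kilobase of gene and 1000000 mapped reads) imply 1834 bases for Malat1 and 3004 for Neat1 in each of the 14 libraries with reads, which are 26.3% and 14.5% of the exon lengths of GENCODE M21. The ratio per base was 3.52 with the implied lengths and 6.40 with the annotated ones. The length of 3004 bases equals that of the short isoform Neat1-202, and no combination of the annotated Malat1 transcripts gives 1834. A read count per gene does not show which isoform or which part of it a read came from. The tRNA-like stretch lies in no exon of the 3 spliced Malat1 transcripts.

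Levels were then compared between groups as CPM (counts per 1000000) scaled by TMM, a method that sets a factor for each library so that most genes keep one level. Mean and SD over the 6 AG, 6 MG and 5 GC libraries were 10.4 ± 12.6, 35.4 ± 21.1 and 33.2 ± 16.8 TMM-normalised CPM for Malat1. For Neat1 they were 7.57 ± 4.78, 17.8 ± 14.7 and 12.2 ± 9.80. For both genes the order of the means was MG, GC, AG. The Malat1 values ran from 0 to 30.3 in AG, from 5.82 to 65.2 in MG and from 14.5 to 53.8 in GC, so that all groups overlapped on this scale. As a share of all counts, AG reached 21.1 RPM and GC began at 22.8, so these groups did not overlap, as was so for 0.367% of all genes. The spread between libraries was 2.13 times the counting variance for Malat1 in AG, 2.14 in MG and 1.44 in GC, and 0.420, 2.47 and 1.18 times for Neat1 (chi-square per degree of freedom).

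**Figure D3:**
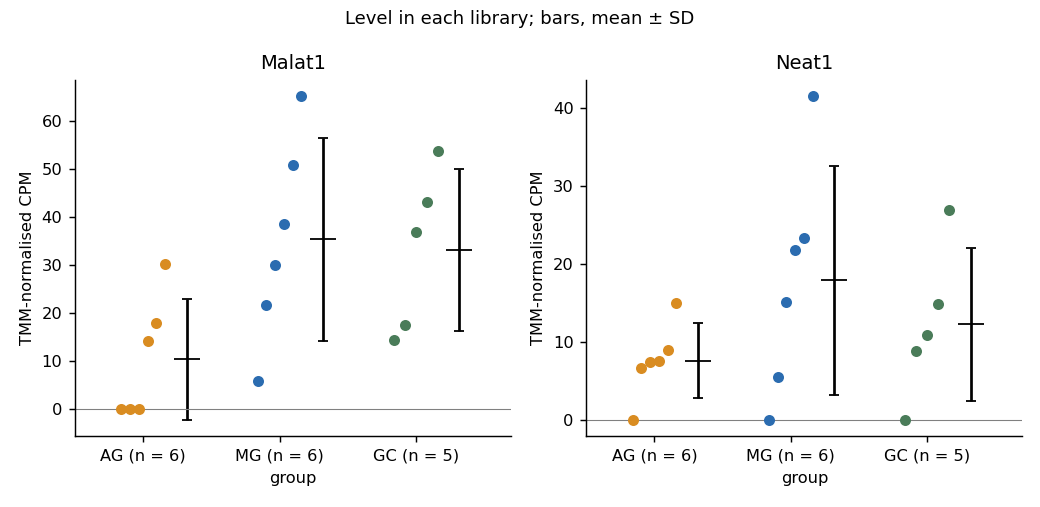
TMM-normalised CPM of Malat1 (left) and Neat1 (right) in each library by group, with mean ± SD as bars (AG n = 6, MG n = 6, GC n = 5). The Malat1 mean is 10.4 in AG against 35.4 in MG and 33.2 in GC, the ranges overlap, and the Neat1 means of 7.57, 17.8 and 12.2 lie within 1 SD of MG.

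The comparison of MG with AG asks what gravity changes within the flight. Malat1 was 3.48-fold higher in MG than in AG (95% interval 1.12 to 10.9), a log2 fold change of 1.80 ± 0.84 (SE). It did not pass the test across all 6270 genes with at least 5 reads (edgeR's quasi-likelihood test, unadjusted p = 0.0316, Benjamini-Hochberg adjusted p = 0.339), where 0.0957% of the genes did. Neat1 was 2.33-fold higher (interval 0.605 to 8.99, log2 fold change 1.22 ± 0.99, adjusted p = 0.706). The median log2 fold change of all genes was 0.39 in this scaling and 1.24 with no scaling factor, and relative to the former Malat1 was higher by 1.41 and Neat1 by 0.83. Ranked within the 12 libraries, Malat1 had p = 0.0411 in a two-sided exact rank test and Neat1 had p = 0.255, where the smallest p that 924 splits allow is 0.00216. These are 2 of 6 such tests, 2.3% of all genes had an exact p under 0.05, and after adjustment over all genes the exact p of Malat1 was 1.00.

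MG and GC differ in both flight and gravity level. In this comparison the difference in Malat1 was smaller than its error. Malat1 was 1.07-fold higher in MG (95% interval 0.382 to 2.99), a log2 fold change of 0.09 ± 0.76, with an adjusted p of 0.995 and an exact rank p of 0.931. This interval is wide in both directions, and the sign turned to -0.13 with TMMwsp scaling. Neat1 was 1.44-fold higher in MG (interval 0.390 to 5.32), with an adjusted p of 0.943 and an exact rank p of 0.574. Of all genes, 0.159% passed here and 2.22% had an exact p under 0.05.

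AG and GC share the gravity level and differ in flight. Malat1 was 3.26-fold lower in AG than in GC, with a log2 fold change of -1.71 ± 0.87 (95% interval -3.41 to -0.0011), an unadjusted p of 0.0498 and an adjusted p of 0.408. The exact rank test gave p = 0.0498, against 2.33% of all genes with an exact p under 0.05 and a smallest possible p of 0.00433. Neat1 was 1.62-fold lower in AG (log2 fold change -0.70 ± 1.07, 95% interval -2.79 to 1.39, adjusted p = 0.889, exact rank p = 0.353). No gene passed in this comparison in edgeR's quasi-likelihood test (0.0% of 6270), while 766 genes had an unadjusted p under 0.05, and DESeq2 called 2 genes, edgeR's exact test 0 and limma 0. The same 6 AG libraries stand in this comparison and in that with MG, so the low Malat1 of AG is counted in both.

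**Figure D4:**
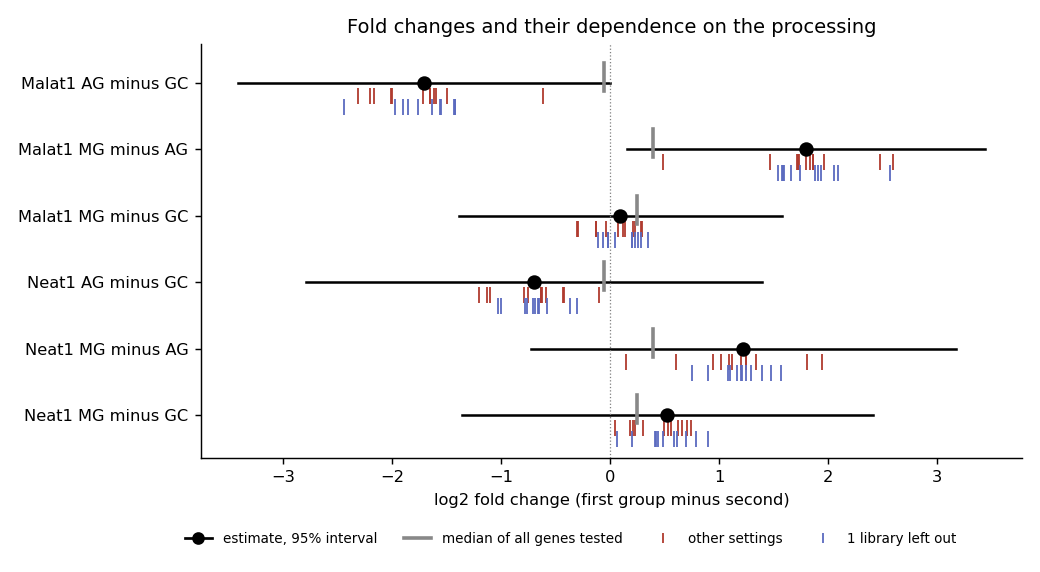
Log2 fold change of each gene in each comparison, first group minus second, as a point with its 95% interval, with the median of all genes tested as a grey bar. Red ticks give the other settings and blue ticks the fits with 1 library left out. Malat1 stays above 0 in MG minus AG and below 0 in AG minus GC, and lies on both sides of 0 in MG minus GC.

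The study itself called genes at a fold change over 1.5 with p under 0.05 before adjustment, in a test of CLC Genomics Workbench. Here the same cuts were set on edgeR's quasi-likelihood test, which more genes passed than the study listed. So set, that criterion was met by Malat1 in MG against AG and in AG against GC and by Neat1 in neither. It does not show that the study's own test called Malat1. Meeting it was common: 13.1% of all genes met it in MG against AG (9.87% higher in MG, 3.19% lower), 13.7% in MG against GC (9.79% higher in MG, 3.86% lower) and 12.2% in AG against GC (5.77% higher in AG, 6.44% lower). Of 12 other settings, 10 kept Malat1 within the criterion in MG against AG and 7 in AG against GC. The exact rank p of Malat1 depended on the scale. For MG against AG and AG against GC it was 0.00866 and 0.00433 on the share of all counts, where 5.98% and 3.94% of all genes had a p under 0.05, and 0.0152 and 0.00866 on deposited RPKM (2.54% and 3.37%). It did not stay under 0.05 when the reads were divided by the counts outside the 4 most abundant genes (Tmem38b, Polr2m, Lars2 and Rn18s-rs5), where it was 0.177 for MG against AG and 0.173 for AG against GC. Those 4 genes held 86.9% to 91.7% of the counts in AG, 70.6% to 83.5% in MG and 76.9% to 83.1% in GC. On that scale Malat1 was 88.1 ± 112 reads per 1000000 of those counts (SD) over the AG libraries, 194 ± 124 over the MG and 181 ± 92.1 over the GC libraries.

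Single libraries also decided the exact p of Malat1 on TMM-normalised CPM. For MG against AG it was 0.0779 without AG replicate 1, 2 or 6, and 0.0801 without MG replicate 4, 5 or 6. For AG against GC it was 0.0873 without AG replicate 1, 2 or 6, 0.0952 without AG replicate 3, and 0.105 without GC replicate 3, 4 or 5. The fold change kept its direction in both comparisons without any 1 library, from 1.54 to 2.57 on the log2 scale for MG against AG and from -2.44 to -1.42 for AG against GC.

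The surroundings of the genes held few reads. Of the nearest protein-coding genes, Ltbp3 on the Malat1 side had 7 reads over the 17 libraries and Sssca1 had 1. On the Neat1 side Frmd8 had 3, and Slc25a45 and Tigd3 had 0. The small or antisense genes annotated within Malat1 and Neat1 (Gm27694, Gm37376, Gm27533, Gm27505 and Gm28006) also had 0 reads, and whether counting used the strand is not given in the sources used here. Gm27702, the tRNA-like gene at the end of Neat1, was at 0 in the count column everywhere but had an RPKM of 10.2 in MG replicate 5, which is 3 reads at its length of 56 bases and the total that the other genes of that library imply. No other library had an RPKM of Gm27702 above 0, and MG replicate 5 had no Neat1 read.

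Other long noncoding RNAs of the nucleus had few reads or none. Of 8 listed, Tug1 had 7 reads in 5 libraries, Miat had 1 read, and Xist, Meg3, Kcnq1ot1, Airn, Firre and Pvt1 were at 0 in both the count and the RPKM columns of every library, which these depths cannot tell from a low level. Tug1 alone entered the test and was not called in any comparison (log2 fold change of 0.15 for MG minus AG, adjusted p = 0.984 in edgeR's quasi-likelihood test), nor did it meet the study's criterion.

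The structured noncoding RNAs of the nucleus and nucleolus differed from these. Rn7sk (7SK RNA, which holds back transcription elongation), Rmrp (the RNA of RNase MRP) and Rpph1 (the RNA of RNase P, the enzyme that cuts the 3′ ends of Malat1 and Neat1) were at 0 in the count column in every library, as were 579 genes in all that had an RPKM above 0. They are therefore described by deposited RPKM, with no test. Rpph1 ran from 208 to 785 RPKM in AG, 294 to 2016 in MG and 749 to 2377 in GC. Rn7sk ran from 19.4 to 88.7 in AG, 19.1 to 156 in MG and 77.6 to 159 in GC. Rmrp ran from 1.28 to 17.9 in AG, 6.40 to 55.3 in MG and 12.7 to 32.4 in GC. Malat1 ran from 0 to 0.561 RPKM in AG, 0.185 to 0.970 in MG and 0.501 to 1.36 in GC. The AG median was the lowest of the 3 groups for all 4 of these RNAs, at 402 for Rpph1, 31.4 for Rn7sk, 7.86 for Rmrp and 0.101 for Malat1. RPKM is a share of mapped reads, and all 4 values of a library share its total.

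**Figure D5:**
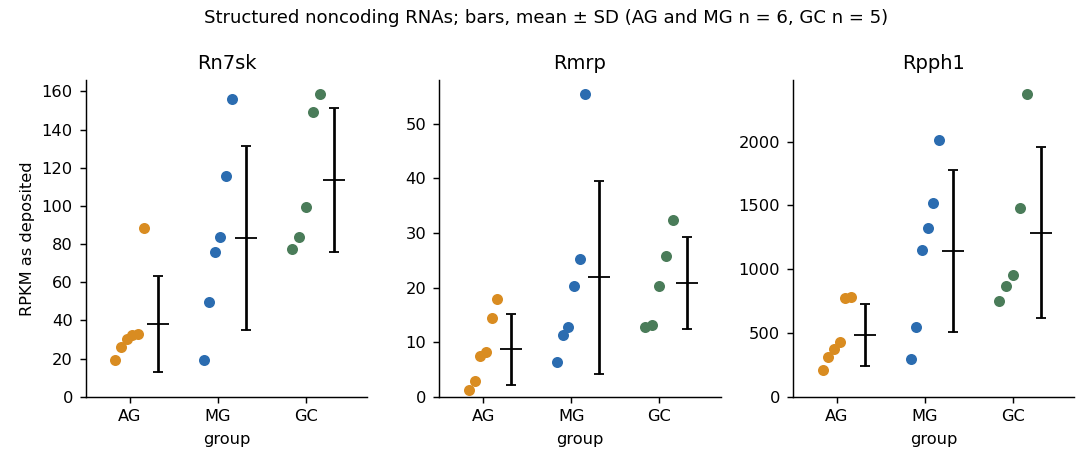
Deposited RPKM of Rn7sk, Rmrp and Rpph1 in each library by group, with mean ± SD as bars, each panel on its own linear axis from 0. The AG libraries lie lowest on average and overlap both other groups, with Rpph1 between 208 and 785 in AG and between 749 and 2377 in GC.

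The proteins of the same nuclear bodies were looked at through their mRNAs. Of 13 paraspeckle proteins, 12 had reads and 11 were tested, and none was called in any comparison by edgeR's quasi-likelihood test. The study's criterion was met by none of the 11 in MG against AG or AG against GC. It was met by 1 as higher in MG than in GC (9.79% of all genes). This was Hnrnph3, which had 16 reads and was at 0 in every GC library, so it was tested only through the flight groups. The median log2 fold change of the 11 was 0.32 for MG minus AG beside 0.39 for all genes. It was 0.37 for MG minus GC beside 0.24, and 0.01 for AG minus GC beside -0.06. With the genes that have a group at 0 set to the bound that 3 reads give, the last became -0.14 beside -0.11. The pair with most reads were Hnrnpk, an RNA-binding protein (22.5 ± 14.1 TMM-normalised CPM in MG and 20.8 ± 21.5 in AG, SD, n = 6 each), and Nono, a core paraspeckle protein (16.1 ± 13.9 in MG and 4.69 ± 5.56 in AG). The difference between MG and AG passed for neither (adjusted p = 0.978 and 0.519).

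Of 11 nuclear speckle proteins, all had reads, 10 were tested and none was called in any comparison. The study's criterion was met by none in MG against AG or MG against GC, and 2 met it as higher in AG than in GC, as did 5.77% of all genes. These were Srsf7 with 6 reads and Pnn with 5, both at 0 in every GC library, so they were tested only through the flight groups. The median log2 fold change was 0.35 for MG minus AG beside 0.39 for all genes. It was 1.10 for MG minus GC (0.72 with genes at 0 set to the bound, beside 0.14) and 0.91 for AG minus GC (0.47, beside -0.11). Srrm2, a scaffold of the speckles, was 43.4 ± 32.4 TMM-normalised CPM in MG (SD, n = 6) and 16.9 ± 13.5 in AG (SD, n = 6), with an adjusted p of 0.440. Son, the other scaffold, was 24.4 ± 19.2 in MG and 16.1 ± 17.9 in AG, with an adjusted p of 0.866.

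Markers of cells that could leave RNA in plasma were read beside the pair, since in plasma fewer cells and less RNA per cell cannot be told apart. Reads of leukocyte markers, from cells with a nucleus, were found in every library: the 17 listed markers in the tables summed to 23 to 46 reads in AG, 26 to 82 in MG and 32 to 84 in GC. In TMM-normalised CPM the sum was 206 to 330 in AG, 196 to 444 in MG and 236 to 490 in GC. Lyz2, the lysozyme of myeloid cells, led with 356 reads, followed by Fcer1g, an Fc receptor chain, with 127. Lymphocyte markers were low. The T cell marker Cd3e had no read, and the B cell markers Cd79a and Ms4a1 had 11 and 3. Ccl5, a chemokine of T and NK cells, had 8, and the NK cell marker Nkg7 had 1. The myeloid markers S100a8, S100a9, Tyrobp and Csf1r were low too, at 8, 13, 5 and 15 reads, while Cd74 had 54. A contrast between these cell types was not tested. None of the 14 markers tested was called. By the study's criterion 1 was higher in MG than in AG (9.87% of all genes were), 1 higher in MG than in GC (9.79%) and 1 lower in AG than in GC (6.44%). These were Tyrobp with 5 reads and none in AG, Csf1r with 15 and none in GC, and Ccl5 with none in AG, each tested only through the groups that had reads. The median log2 fold change was 0.50 for MG minus AG beside 0.39 for all genes (0.38 beside 0.30 with genes at 0 set to the bound), 0.14 for MG minus GC beside 0.24, and -0.19 for AG minus GC beside -0.06. Their part in the Malat1 difference was not tested.

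Red cell markers had the opposite sign to Malat1 between MG and AG. The 11 markers summed to 7135 to 21435 TMM-normalised CPM in AG, 2663 to 14046 in MG and 6192 to 18755 in GC, led by the globins Hba-a2 (14517 reads) and Hbb-bs (6054 reads). None was called. The log2 fold change in MG minus AG was negative for all 11, among them Epb42 with 5 reads and none in MG, with a median of -1.07 (-0.91 at the bound) beside 0.39 for all genes, and 5 met the study's criterion as lower in MG, as did 3.19% of all genes. Epb42 was 1 of these 5 and was tested only through the other groups. For MG minus GC the median was -0.30 beside 0.24 (-0.26 beside 0.14 at the bound), and 1 met the criterion as lower in MG (3.86% of all genes). For AG minus GC it was 0.67 beside -0.06, with 10 of the 11 positive, and 1 met the criterion as higher in AG (5.77% of all genes). The 9 platelet markers, led by Ppbp (4963 reads) and Pf4 (475 reads), had medians of 0.32, -0.44 and -0.61 for MG minus AG, MG minus GC and AG minus GC, beside 0.39, 0.24 and -0.06 for all genes. None of these was called and none met the criterion. Their part in the Malat1 difference was not tested.

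Markers of liver and muscle were read in the same way. Of 10 liver markers tested, Alb (serum albumin) was called, higher in MG than in GC with a log2 fold change of 4.06 ± 0.72 (edgeR's quasi-likelihood test, adjusted p = 6.62e-05), and 6 met the study's criterion in that direction, as did 9.79% of all genes. Alb had 0 to 294 reads in MG, 0 to 116 in AG and 1 to 8 in GC, and the highest MG library was replicate 6. Apoa1, the main apolipoprotein of HDL, had 86 reads and an adjusted p of 0.564 for MG against GC. Without MG replicate 6 the log2 fold change of Alb was 1.80 and its adjusted p 0.365, so the call rested on it, and without any other library it lay between 3.85 and 4.47. The sum of the liver markers was 3077 TMM-normalised CPM in MG replicate 6, while the remaining MG libraries ran from 5.82 to 313. Leaving out MG replicate 6, 2 of the 10 met the study's criterion. In AG against GC 4 of the 10 met it as higher in AG, as did 5.77% of all genes, and that count was 1 without AG replicate 6, where the sum was 1411, and 2 without GC replicate 3. In MG against AG 2 of the 10 met it as higher in MG, as did 9.87% of all genes. That count was 6 without AG replicate 6, 1 without AG replicate 2, 3 or 5, and 0 without AG replicate 1 or 4 or MG replicate 6. The median log2 fold change was 0.79 for MG minus AG beside 0.39 for all genes, 2.25 for MG minus GC beside 0.24 and 1.13 for AG minus GC beside -0.06 (1.87 beside 0.14 and 0.97 beside -0.11 at the bound for the last 2). Serpina1c, with 17 reads and none in GC, is in the counts of MG and of AG against GC and was tested only through the flight groups. Leaving libraries out for the liver markers was chosen after seeing the data. None of the 7 muscle markers tested was called. By the study's criterion 2 were lower in MG than in AG (3.19% of all genes) and 1 higher (9.87%), 1 was lower in MG than in GC (3.86%) and 1 higher in AG than in GC (5.77%). The median log2 fold change was -1.33 for MG minus AG beside 0.39 for all genes (-1.09 beside 0.30 at the bound), -1.34 for MG minus GC beside 0.24, and 0.56 for AG minus GC beside -0.06. Myh1, a fast muscle myosin, had a log2 fold change of 3.59 for MG minus AG and Myh4, another, -1.97, neither called (adjusted p = 0.339 for both in edgeR's quasi-likelihood test). The others that met it were Tnni2, with 8 reads and none in MG, and Pvalb, with 6 and none in GC. Each was tested only through the groups that had reads. Myh4 had 0 to 20 reads in AG, 0 to 3 in MG and 0 to 8 in GC, and Mb, the oxygen store of muscle, had 21 reads in all.

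Across the 17 libraries the pair did not move together beyond what permutation gives. Over log2(TMM-normalised CPM + 1), Malat1 and Neat1 had Pearson's r = 0.08 (permutation p = 0.780, adjusted p = 0.888 over 5 relations) and Spearman's rho = 0.43 (p = 0.0863, adjusted p = 0.263). Without AG replicates 1 and 2, which with AG replicate 6 were farthest from the Malat1 median, r was 0.08. Within AG r was -0.38 (exact p = 0.642) and within MG -0.04 (exact p = 0.939), and r was not computed within GC, which has 5 libraries. Malat1 and the sum of the leukocyte markers had r = 0.19 (permutation p = 0.479) and rho = 0.38 (p = 0.137), and r = 0.25 without the same pair of libraries. Neat1 and the leukocyte sum had r = 0.04 (p = 0.888) and rho = 0.15 (p = 0.550), and r = 0.10 without AG replicate 3 and MG replicate 5. With the red cell sum, Malat1 had r = -0.34 (p = 0.178) and rho = -0.36 (p = 0.160), with r = -0.07 without AG replicates 1 and 2, and Neat1 had r = -0.26 (p = 0.307) and rho = -0.32 (p = 0.210), with r = -0.44 without AG replicate 3 and MG replicate 5. Within AG the r of these last 4 relations was -0.30, -0.48, 0.07 and -0.60, and within MG -0.25, -0.06, -0.24 and 0.28, with exact p of 0.210 or more. By rank, Neat1 within AG had rho = -0.83 with the red cell sum (exact p = 0.0583) and -0.77 with the leukocyte sum (exact p = 0.103). The other rho within AG or MG had an exact p of 0.450 or more. The lowest adjusted p of the 5 relations was 0.767 for r and 0.263 for rho.

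Among the 201 genes with at least 170 reads, those whose TMM-normalised CPM followed Malat1 most closely over the 17 libraries were Snhg5, a host gene of small nucleolar RNAs, with Spearman's rho = 0.49, Ccdc107 with 0.46 and Ptcd3 with 0.45. Closest to Neat1 were Rps23, a ribosomal protein mRNA, with rho = 0.67, Eef1a1, the translation elongation factor, with 0.64, and Yipf1 with 0.53. The median rho over these genes was -0.05 for Malat1 and -0.16 for Neat1. The leading genes were picked from all 201 and share library and scaling factor with the pair, so these values are a description. Over the AG, MG and GC libraries Snhg5 was 5895 ± 2285, 14553 ± 8937 and 16581 ± 9937 TMM-normalised CPM (SD), lowest in AG as Malat1 was. Eef1a1 was 224 ± 66.7 in AG, 364 ± 77.1 in MG and 318 ± 80.7 in GC, the same order of groups as Neat1.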

How the data were processed

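Plasma cfRNA of 17 mice was measured in AG (6), MG (6) and GC (5). CLC Genomics Workbench was used by the authors for mapping to mm10, and they deposited, per gene, a count without normalization and an RPKM, scaled by gene length and mapped reads. The deposited TPM was not used. Groups came from the sample labels, which give no batch. Counts of genes with at least 5 reads were fitted with edgeR 4.0.16 in R 4.3.3 (quasi-likelihood test, TMM, all libraries in one fit, Benjamini-Hochberg over 6270 genes, threshold 0.05). The biological coefficient of variation was 0.941. Exact two-sided rank tests with midranks and permutation tests (100000 resamples) used Python 3.11.15 with scipy 1.17.1. The tests were checked on simulated data. Alternatives included DESeq2 1.42.0, edgeR's exact test and limma 3.58.1 on log2(RPKM + 1) and log2(RPKM + 0.1). Mapped totals were recovered from RPKM and counts.

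Both genes were named in full in every library. Of each gene list the pair with most reads and any gene called were named, as were the 3 nearest protein-coding genes on each side and the 3 genes most like each by Spearman's rho, except that 1 gene is not reported here. Hnrnph3, Srsf7, Pnn, Tyrobp, Csf1r, Epb42, Serpina1c, Myh1, Tnni2, Pvalb, S100a8, S100a9, Cd74 and the lymphocyte markers were named after their values were seen. The members and lists were chosen with earlier results of these data known. Libraries of one group differed by at least 5.46 in chi-square per degree of freedom, so none was counted as a duplicate. That each library is a separate mouse is taken from the study's design. The exact rank and permutation p-values measure the spread between libraries. In edgeR's quasi-likelihood test the spread was pooled over all genes, with 87780 degrees of freedom for each gene. Its p-values and intervals, those of Malat1, Neat1 and Alb among them, therefore do not measure a gene's own spread between libraries.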

Additional observations from a re-analysis of the deposited data

Results flagged for a closer look

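Gm27702, the tRNA-like small RNA gene that begins where Neat1 ends, had a deposited RPKM of 10.2 in MG replicate 5 although its count was 0 there, and its RPKM was 0 in the GC libraries and in all others. It lies outside the counts that the comparisons use, and no test was run on it. No library stood far from the others of its group in the level of Malat1 or Neat1, over 12 group values examined on the TMM-normalised CPM and RPKM scales by Dixon's test.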

How the results depend on the processing

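No alternative put either gene past an adjusted p of 0.05 in any comparison. Over 12 settings the log2 fold change of Malat1 ran from 0.49 to 2.60 for MG minus AG and from -2.31 to -0.62 for AG minus GC, and that of Neat1 from 0.15 to 1.94, 0.05 to 0.74 and -1.20 to -0.10 for MG minus AG, MG minus GC and AG minus GC, all with the direction kept. The smallest of these came from limma on log2(RPKM + 1), a scale that understates the change of low genes. Malat1 in MG minus GC turned to -0.13 with TMMwsp, -0.13 and -0.30 in limma on log2(RPKM + 1) and log2(RPKM + 0.1), -0.039 with the replicate block and -0.30 with mapped reads as library totals, a setting chosen after seeing the data, and ran from -0.11 to 0.35 with 1 library left out. The cause was not tested. Left out in turn, Neat1 ran from 0.75 to 1.56, 0.06 to 0.90 and -1.03 to -0.30.

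The exact rank p of Malat1 ran from 0.0173 to 0.0801 (MG against AG), 0.548 to 1.00 (MG against GC) and 0.0317 to 0.105 (AG against GC) with 1 library left out, and that of Neat1 from 0.0823 to 0.459, 0.276 to 0.914 and 0.114 to 0.657. With counts outside the 4 most abundant genes it was 0.177 and 0.173 for Malat1 against AG, and 0.981 for Neat1 in AG against GC with the direction turned. With RPKM, as deposited or scaled by the library mean, Malat1 in MG against GC had an exact p of 0.792 with the direction turned. The correlation of Malat1 with Neat1 was -0.043 on counts outside those genes and -0.050 with values centred on their group mean, where Malat1 and Neat1 with leukocyte markers gave -0.10 and -0.033.

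Calls over all genes numbered 0 to 8, 0 to 12 and 0 to 10 in the 3 comparisons under the other settings and 0 to 9, 5 to 12 and 0 to 6 with 1 library left out, against 6, 10 and 0. Under the other settings genes that met the study's criterion numbered 27 to 1305, 12 to 1002 and 32 to 940, against 819, 856 and 766 of 6270. The settings tested from 272 to 12605 genes, so these ranges are not of one gene set. The 12 and 32 are out of 272 genes and the 1002 is out of 12605. The expression filter of edgeR kept 272 genes and neither Malat1 nor Neat1, so it gave no value. The replicate numbers shared by the groups did not pair the libraries throughout (correlation over 0.1 in 7 of 16 pairs, median 0.05, lowest -0.50). The libraries numbered 1 were alike, with r of 0.43 (AG and MG), 0.54 (AG and GC) and 0.59 (MG and GC). Pairing was not tested. With 0 to 11 reads per library, depth limits what can be seen: the interval of Malat1 in MG against AG spans 1.12 to 10.9-fold.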
